A study of Arabidopsis thaliana with 7 samples.

Results

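The low-energy markers described here are 4 probe sets on a whole-genome Arabidopsis thaliana array, out of 22746 measured. AT2G20670, AT3G15450 and AT4G27450 each had 1 probe set named in the platform annotation. The other one was taken by its probe set identifier as ASN1 (also DIN6, AT3G47340), and the annotation used here pairs it with no gene. All 4 were among the 13647 probe sets bright enough to be tested. AT2G20670 and AT3G15450 were chosen by high signal on the soc1-2 array against Col of the same experiment, and AT4G27450 by low signal in soc1-101D against Col. These genotype differences are therefore given as a description, without a test, and support nothing. On what basis ASN1 was added is unknown, so all its values are a description too.

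The RNA came from whole seedlings of 3 genotypes, all grown for 7 days after germination at 21 °C under 16 h of light and 8 h of dark. The soc1-101D seedlings carried an early-flowering gain-of-function allele of SOC1 in the Columbia background (3 arrays). The soc1-2 seedlings carried a late-flowering knock-out allele, with Columbia as the basal strain (1 array). Col was the Columbia wild type (3 arrays). SOC1 encodes a MADS-box factor that promotes flowering, and the study set out to find genes downstream of it. Experiments 1, 2 and 3 each held a soc1-101D and a Col array, and experiment 3 also held the soc1-2 array. The labels give neither the time of day of harvest nor the number of seedlings per sample. Whether the experiments were separate plantings is not stated, so a p-value reflects only how far these arrays differ, which could be technical.

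Plants that run short of sugar, as in prolonged darkness, activate the kinase SnRK1, which turns down growth and turns on genes for the recycling of amino acids, proteins and stored carbon. Trehalose-6-phosphate signals sugar sufficiency and holds the kinase back, and bZIP factors of groups C and S1 act below it at target promoters. ASN1 encodes a glutamine-dependent asparagine synthetase, which packs nitrogen into a carbon-sparing amide, and it is a classic dark-induced and sugar-repressed gene. AT3G15450 and AT4G27450 encode related proteins of the aluminium-induced family with YGL and LRDR motifs, and AT2G20670 encodes a protein with a domain of unknown function, DUF506. Transcripts of all of these are used as readouts of low energy in seedlings.

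Signals below are intensities with each array scaled to a common median of 192.7, so a signal near 193 is that of a middling probe set. The table used here named no probe set for SOC1 (AT2G45660), so the genotypes rest on the labels. The 3 named leaf markers (RCA, LHCB4.1 and LHCB4.2) summed to between 56138 and 95202 on the 7 arrays, and the 3 root markers (PYK10, EXPA7 and EXPA18) to between 13711 and 22954. Nearly all of the root sum was PYK10 (13114 to 22022), while EXPA7 read 127 to 249 and EXPA18 read 268 to 709. Leaf transcripts were thus bright on every array, and for root only PYK10 was. None of the 6 markers passed the limma test in soc1-101D or soc1-2, while no seed storage or flower marker was named. In RNA from whole seedlings, fewer cells of a type and less RNA per cell cannot be told apart.

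The markers were far from uniform, and ASN1 differed more between experiments than between genotypes of 1 experiment. ASN1 read 341, 950.1 and 40.1 in soc1-101D of experiments 1, 2 and 3, 25.5 in soc1-2 of experiment 3, and 513, 3738 and 27.0 in Col of experiments 1, 2 and 3. Every array of experiment 3 was low, whatever the genotype, and both arrays of experiment 2 were above the other 5 arrays. On the experiment 3 arrays ASN1 was brighter than 20.9% to 25.8% of all probe sets, against 85.4% in soc1-101D and 96.8% in Col of experiment 2. No detection call came with the values, so whether ASN1 was above background in experiment 3 was not tested.

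AT3G15450 read 1979, 5019.96 and 2259.9 in soc1-101D of experiments 1, 2 and 3, 4002 in soc1-2, and 2643, 6316 and 1175 in Col. Both arrays of experiment 2 were again above the other 5, a pattern shared by 9.66% of all tested probe sets. AT2G20670 read 1477, 1402 and 911 in soc1-101D, 2081 in soc1-2, and 1793, 3168 and 431 in Col. Its highest and lowest signals were both from Col, in experiments 2 and 3. The Col range was 7.08-fold, against 1.61-fold over the 3 soc1-101D arrays, and ranges between arrays here are folds of signal plus a pseudocount of 19.3. The choice of AT2G20670 favours a low signal in Col of experiment 3, so nothing is read from the wider Col range.

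AT4G27450 had the steadiest genotype pattern. It read 545, 378 and 291 in soc1-101D of experiments 1, 2 and 3, 734 in soc1-2, and 1379.6, 979 and 620.3 in Col. The soc1-101D and Col arrays did not overlap, and the soc1-2 array lay within the Col range. Of all tested probe sets, 2.42% had all 3 soc1-101D arrays below all 3 Col arrays. Its 3 differences from Col were all negative, as for 18.3% of tested probe sets. This gene was chosen for that contrast, so nothing is read from its place there.

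**Figure D1:**
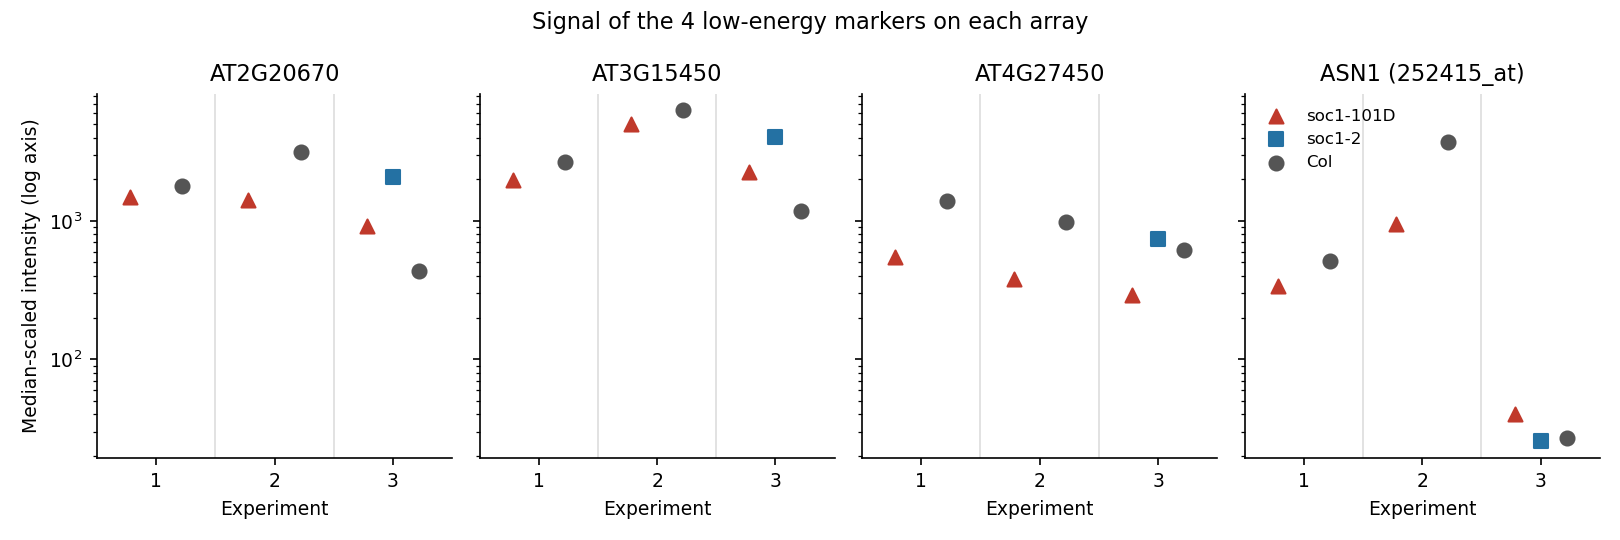
Median-scaled intensity (log axis) of each marker on the 7 arrays, by experiment, with soc1-101D as triangles, soc1-2 as a square and Col as circles, 1 point per array. ASN1 lies between 25.5 and 40.1 on all 3 arrays of experiment 3, while AT4G27450 is lower in soc1-101D than in Col in every experiment.

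By mean signal the genotypes could not be put in a firm order for 3 of the 4 genes. AT2G20670 averaged 1263 ± 308 in soc1-101D and 1797 ± 1369 in Col (SD, n = 3 each), with the single soc1-2 array at 2081. AT3G15450 averaged 3086 ± 1680 in soc1-101D and 3378 ± 2648 in Col (SD, n = 3 each), with soc1-2 at 4002. ASN1 averaged 444 ± 464 in soc1-101D and 1426 ± 2017 in Col (SD, n = 3 each), with soc1-2 lowest at 25.5. For these genes the means of soc1-101D and Col differed by less than 1 SD of Col. For AT4G27450 the means were 404 ± 129 in soc1-101D and 993 ± 380 in Col (SD, n = 3 each), further apart than either SD, and soc1-2 at 734 lay within 1 SD of Col. This gene was chosen by that contrast, so nothing is read from the separation. All these SDs include the differences between experiments.

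Differences within an experiment remove the level of that experiment. They are on the log2(signal + pseudocount) scale, which understates the change of dim probe sets such as ASN1 in experiment 3. In soc1-101D against Col, AT4G27450 differed by −1.31, −1.33 and −1.05 in experiments 1, 2 and 3, a mean of −1.23 with an SD of 0.16, or 2.34-fold lower. The 3 values are alike in sign, which the choice required, and in size, which it favours, so nothing is read from their likeness. The earlier choice took the 10 largest falls among named genes that were called and lower in all 3 experiments. AT4G27450 stood 9th, MSRB6 was just inside at −1.15 and AT5G58900 just outside at −1.14.

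The other 3 genes changed sign between experiments in soc1-101D. AT2G20670 differed from Col by −0.28, −1.16 and 1.05 in experiments 1, 2 and 3 (mean −0.13, SD 1.11). AT3G15450 differed by −0.41, −0.33 and 0.93 (mean 0.06, SD 0.75). ASN1 differed by −0.56, −1.95 and 0.36 (mean −0.72, SD 1.17). Each was lower than Col in experiments 1 and 2 and higher in experiment 3, the sign pattern of 13.9% of tested probe sets. Their means were thus smaller than the SD of the 3 differences, and a mean over the experiments hides opposite values. AT2G20670 and AT3G15450 were chosen by soc1-2 against Col of experiment 3, which favours a low Col signal there. Their positive soc1-101D values in experiment 3 use that same array, so nothing is read from their sign change.

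Experiments 1 and 2 played no part in the choice of AT2G20670 and AT3G15450, so soc1-101D could be tested there. In a limma fit without experiment 3, 1.12% of 13647 probe sets were called at an adjusted p under 0.05. AT2G20670 had a log2 difference of −0.72 ± 0.26 (limma SE, adjusted p = 0.321), and AT3G15450 one of −0.37 ± 0.21 (adjusted p = 0.614). Neither passed, with 1 residual degree of freedom and 2 arrays per genotype.

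On the soc1-2 array AT2G20670 was 4.66-fold higher than Col of experiment 3 (log2 2.22) and AT3G15450 was 3.37-fold higher (log2 1.75). AT4G27450 was at 0.24 and ASN1 at −0.05. AT2G20670 and AT3G15450 were chosen by this difference and AT4G27450 by another, so nothing is read from the split among the markers. By the same measure, 0.674% of all tested probe sets were 2-fold or more above Col on this array and 0.139% were that far below it. AT2G20670 and AT3G15450 stood 4th and 7th among named genes, in a top 10 that ended with AT1G72900 at 1.634, with AR781 just outside at 1.628. With 1 soc1-2 array, there is no replicate check.

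Col of experiment 3 had the lowest signal of all 7 arrays for both AT2G20670 and AT3G15450, and the soc1-101D array of the same experiment was also above it, 2.07-fold and 1.91-fold. Both mutants were at least 1.5-fold above this Col array in 0.755% of tested probe sets. Both comparisons use this Col array, and the choice of the 2 genes favours a low signal on it. Set directly against soc1-101D of experiment 3, soc1-2 was 2.26-fold higher for AT2G20670, 1.76-fold higher for AT3G15450 and 2.43-fold higher for AT4G27450, and at a log2 of −0.41 for ASN1. Against Col of all experiments in a fit without the experiment as a block, the soc1-2 differences were 0.61 for AT2G20670, 0.56 for AT3G15450, −0.35 for AT4G27450 and −3.34 for ASN1. The soc1-2 signals of AT2G20670 and AT3G15450 lay between those of Col in experiments 1 and 2.

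**Figure D2:**
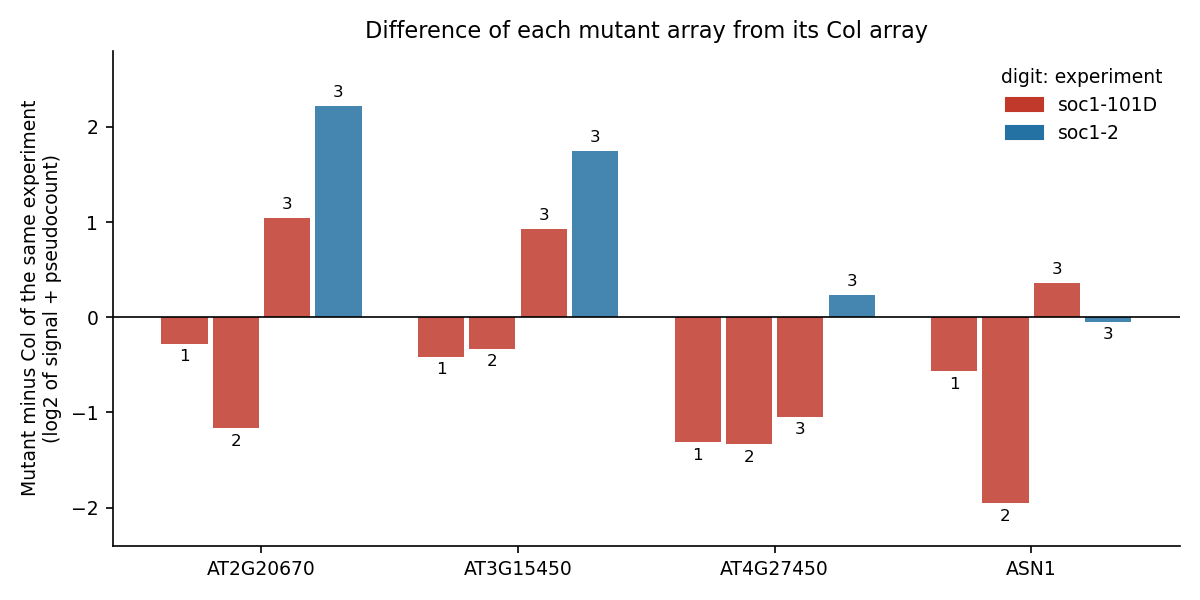
Log2 difference of each mutant array from the Col array of its own experiment for the 4 markers, soc1-101D in red and soc1-2 in blue, with the experiment number on each bar. AT4G27450 is negative in all 3 soc1-101D bars, and AT2G20670 and AT3G15450 are positive in both mutants of experiment 3 and negative in experiments 1 and 2. The last 2 genes were chosen by the soc1-2 bar, which shares its Col array with the soc1-101D bar of experiment 3.

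The next comparison asked how the markers differed between experiments once genotype was accounted for. Experiments differed widely across the array: 51.6% of tested probe sets passed the limma F-test on the experiment terms at an adjusted p under 0.05. The low Col signal of experiment 3 had helped to choose AT2G20670 and AT3G15450. For those 2 genes only experiments 1 and 2 were therefore compared by a test. The SE and p of that test still rest on the residual spread over all arrays, the Col array of experiment 3 included. In experiment 2 against experiment 1, 16.6% of probe sets were called higher and 16.0% lower. AT3G15450 was 2.45-fold higher (log2 1.29 ± 0.32, limma SE, adjusted p = 0.0199), higher in both genotypes. It missed the threshold with no filter on dim probe sets (adjusted p = 0.111). AT2G20670 was at 0.37 ± 0.44 (limma SE, adjusted p = 0.548) and did not pass. A limma fit without experiment 3 leaves that Col array out. By the design, leaving it out cannot change either difference, only the SE and p. There AT3G15450 passed (adjusted p = 0.0022) and AT2G20670 did not (adjusted p = 0.304), with 1 residual degree of freedom.

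For AT4G27450 the experiment differences are given without a test. It was chosen for being called in soc1-101D, which favours a small residual spread on these same arrays, and the experiment tests rest on that spread. The fitted log2 differences were −0.50 for experiment 2 against experiment 1, −0.996 for experiment 3 against experiment 1 (1.99-fold lower) and 0.50 for experiment 2 against experiment 3. The signal was lowest in experiment 3 and highest in experiment 1, both in soc1-101D and in Col.

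For ASN1 the fitted experiment differences were a log2 of 2.12 for experiment 2 against experiment 1, −3.06 for experiment 3 against experiment 1 and 5.19 for experiment 2 against experiment 3. The last stood first among the 13647 tested probe sets, where the median was −0.15 and 7.79% were called higher. With no filter on dim probe sets it stood first among 22746. ASN1 entered the tested set through its experiment 2 signals, since without experiment 2 it fell below the filter. Nothing is therefore read from its rank here or in experiment 2 against experiment 1. The size of the difference from experiment 3 is uncertain, since the experiment 3 signals were near the pseudocount of 19.3 and were not tested against background. It was 3.95 with a pseudocount of 0.5 times the common median and 5.80 with a pseudocount of 1, and ASN1 stood 2nd with either. The difference of experiment 2 against experiment 1, where ASN1 was brighter, stood at rank 142 from the top, with AT3G15450 at rank 577, AT2G20670 at rank 3726 and AT4G27450 at rank 10800.

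**Figure D3:**
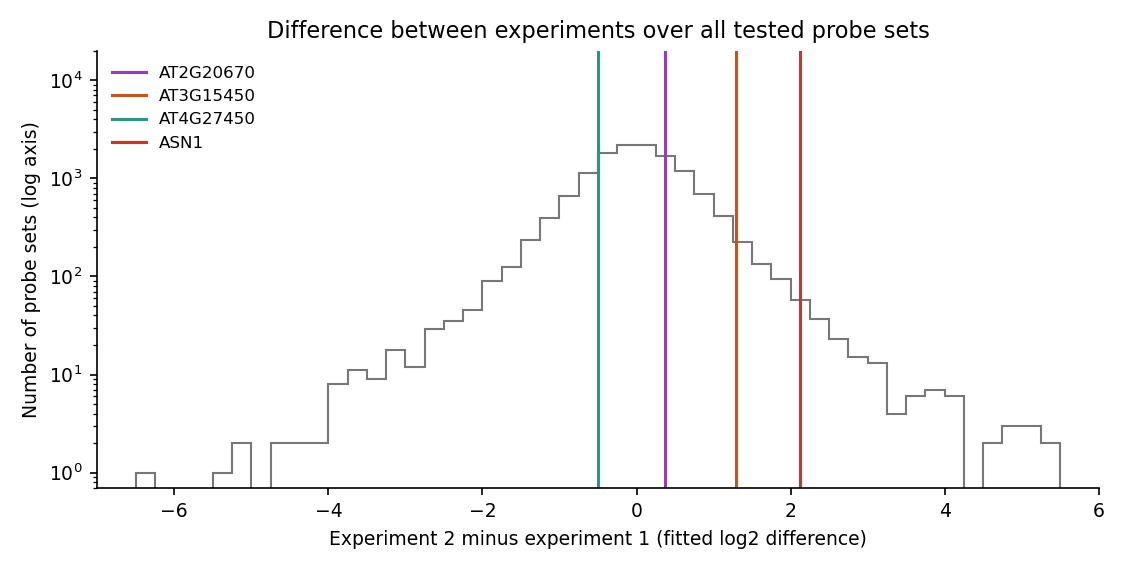
Number of tested probe sets (log axis) by fitted log2 difference of experiment 2 minus experiment 1, with the 4 markers as vertical lines. ASN1 lies at 2.12, AT3G15450 at 1.29, AT2G20670 at 0.37 and AT4G27450 at −0.50, around a median of all tested probe sets of −0.0011.

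GIGANTEA (GI), a clock gene whose transcript peaks late in the light period, differed between the same experiments. It read 458, 2348 and 839.7 in soc1-101D of experiments 1, 2 and 3, 1014 in soc1-2, and 399, 3001 and 1032 in Col. Its level was highest in experiment 2 in both genotypes, 5.99-fold above experiment 1 and 2.81-fold above experiment 3 (limma adjusted p = 0.000225 and 0.00564). It was the single named member of 10 in the clock list. Its part in the marker differences was not tested. The light-harvesting gene LHCB4.2 was also 2.50-fold higher in experiment 2 than in experiment 3 (adjusted p = 0.00766), while RCA did not pass (log2 0.16, adjusted p = 0.547).

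The wider energy network was read from 12 lists with 108 genes. The annotation named 32 of them, and 30 were bright enough to test. In soc1-101D none of the 30 passed limma's test over all genes (2 at an unadjusted p under 0.05), where 0.271% of all tested probe sets were called higher and 0.271% lower, and 11.0% had an unadjusted p under 0.05. Their median log2 difference was −0.12 and 24 of 30 were below 0, against a median of −0.02 and 54.8% below 0 over all tested probe sets. In soc1-2 none passed either (3 at an unadjusted p under 0.05), and limma called 0 of all tested probe sets (387, or 2.84%, at an unadjusted p under 0.05). Against Col of experiment 3 the median soc1-2 difference of the 30 was 0.13 and 22 of 30 were above 0, against −0.02 and 46.4% above 0 over all tested probe sets. Of the 30, 3 were 2-fold or more higher and 0 that far lower, against 0.674% and 0.139% of all tested probe sets. The 3 were AT2G39650, AT3G07350 and EXO, and the Col signal of each was lowest in experiment 3. The lists were chosen with earlier results of these data known, so nothing is read from this count. Between experiments 17 of the 30, or 56.7%, passed the F-test, close to the 51.6% of all tested probe sets. In experiment 3 against experiment 1, 25.9% of all tested probe sets were called higher. No member was named in the lists of asparagine synthetases with glutamate dehydrogenases (5 genes) or of class II trehalose-phosphate synthase-like genes (7 genes).

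Relatives of the markers did not share their pattern throughout. In the YGL/LRDR family, AILP1 (AT5G19140) was 2.78-fold higher in experiment 2 than in experiment 1 (adjusted p = 0.00124) and 2.45-fold higher than in experiment 3 (adjusted p = 0.00618). Like AT3G15450 it was highest in experiment 2, but its Col signal was lowest in experiment 1 and that of AT3G15450 in experiment 3. It read 4019, 10288 and 4667 in soc1-101D of experiments 1, 2 and 3, 5419 in soc1-2, and 4179.8, 12710.1 and 4636 in Col. AT5G43830 was 1.92-fold higher in experiment 3 than in experiment 1 (adjusted p = 0.0078), and AT3G22850 did not pass the F-test (adjusted p = 0.124). All 3 relatives were 0.10 to 0.23 above Col on the soc1-2 array, and at −0.12 (AILP1), −0.11 (AT5G43830) and −0.02 (AT3G22850) in soc1-101D.

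In the DUF506 family of AT2G20670, 5 of 10 genes were named and 4 were tested. Set against the single Col array of experiment 3, which was the lowest of the 3 Col arrays for all 4, the soc1-2 log2 differences were 1.40 for AT2G39650, 1.08 for AT3G07350, 0.69 for AT3G22970 and 0.59 for AT2G38820, with a median of 0.88, against a median of −0.02 and 46.4% above 0 over all tested probe sets. The soc1-101D array of experiment 3 was also above this Col array for 3 of them, by 0.57, 0.78 and 0.46 for AT2G39650, AT3G22970 and AT2G38820. Set against that soc1-101D array, soc1-2 was at 0.83 for AT2G39650, 1.47 for AT3G07350, −0.09 for AT3G22970 and 0.14 for AT2G38820. None passed in the fit. The opposite differences of AT3G07350 in the mutants were known from earlier results of these data. It read 914, 643 and 454 in soc1-101D of experiments 1, 2 and 3, 1295 in soc1-2, and 1344, 1676.5 and 604 in Col. Like AT2G20670 it was lowest in experiment 3 among the soc1-101D and the Col arrays, and its soc1-2 signal lay within the Col range. In soc1-101D the family was at −0.77 for AT3G07350, −0.33 for AT2G38820, 0.09 for AT2G39650 and 0.30 for AT3G22970, none past the test. Between experiments, AT3G07350 and AT2G38820 were lower in experiment 3 than in experiment 1 (log2 −1.05 and −1.43, adjusted p = 0.0146 and 0.0106), a direction called in 14.3% of all tested probe sets.

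Among upstream regulators, none passed the test between genotypes. Of the SnRK1 subunits, 3 of 7 were named and tested: the beta subunit AKINBETA1 (AT5G21170) was at −0.39 in soc1-101D, AT4G16360 at −0.01 and AT2G28060 at −0.08. On the soc1-2 array the same 3 were at 0.14, −0.12 and −0.35. AKINBETA1, itself used as a low-energy readout, read 618, 652 and 505 in soc1-101D of experiments 1, 2 and 3, 508 in soc1-2, and 972, 1053 and 458 in Col. As with 3 of the 4 markers, it was below Col in experiments 1 and 2 and above it in experiment 3. It missed the F-test (adjusted p = 0.0509), and AT2G28060 passed it (adjusted p = 0.0480). Among the bZIP factors, 2 of 9 were named and both passed the F-test, which 51.6% of all tested probe sets passed. BZIP53, which binds the ASN1 promoter, was 1.93-fold higher in experiment 2 than in experiment 1 (adjusted p = 0.00645) and 1.53-fold higher in experiment 3 than in experiment 1 (adjusted p = 0.0288). It did not pass in experiment 2 against experiment 3 (log2 0.34, adjusted p = 0.191). In experiment 3 it read 2045 in soc1-101D, 2658 in soc1-2 and 2061 in Col. The other factor, bZIP44 (AT1G75390), was 2.91-fold higher in experiment 3 than in experiment 1 (adjusted p = 0.00155). In soc1-101D the 2 factors were at −0.13 and 0.03, and on the soc1-2 array at 0.36 and 0.12.

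No tested gene of the other low-energy list or of the recycling pathways passed between genotypes. In the list of 25 low-energy genes 3 were named and 2 tested, AKINBETA1 and the autophagy gene ATG8E, with a median of −0.41 in soc1-101D. ATG8E was at −1.09, 0.07 and −0.24 in soc1-101D of experiments 1, 2 and 3, a fitted −0.42, and at 0.28 in soc1-2. AKINBETA1 was at −0.64, −0.68 and 0.14 in soc1-101D. The third, ATL8, was too dim to be tested, with signals from 61.2 to 234. Of the 4 tested genes of branched-chain amino acid breakdown (of 7), MCCA was at −0.21, MCCB at −0.19, ETFQO at −0.34 and IVD at −0.10 in soc1-101D. On the soc1-2 array they were at 0.25, 0.09, −0.31 and 0.01. IVD, which encodes isovaleryl-CoA dehydrogenase, was 2.17-fold higher in experiment 2 than in experiment 1 (adjusted p = 0.00589), the direction of ASN1 and AT3G15450. That direction was called in 16.6% of all tested probe sets. The others did not pass in this comparison, with MCCA at 0.34, MCCB at 0.02 and ETFQO at −0.07.

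All 9 ATG8 genes, which encode the ubiquitin-like proteins of autophagosome membranes, were named and tested, and 4 of 9 passed the F-test between experiments, against 51.6% of all tested probe sets. AT3G15580 was 2.39-fold higher in experiment 2 and 2.01-fold higher in experiment 3 than in experiment 1 (adjusted p = 0.00233 and 0.00456). ATG8C was 1.70-fold and 1.68-fold higher in the same comparisons (adjusted p = 0.0140 and 0.0129). ATG8D was 1.80-fold higher in experiment 3 than in experiment 1 (adjusted p = 0.00910), and APG8A, which passed too, was 1.80-fold higher in experiment 2 (adjusted p = 0.0273). All 4 were lowest in experiment 1, in soc1-101D and in Col. In soc1-101D the 9 had a median of −0.16, with ATG8C at −0.29, and on the soc1-2 array a median of 0.19, with ATG8H (AT3G06420) at 0.71 and APG8A at 0.34.

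Of the starch breakdown list, 2 of 11 genes were named and tested. Both passed the F-test on the experiment terms, as did 51.6% of all tested probe sets. Of all tested probe sets, 16.6% were called higher in experiment 2 than in experiment 1, and 25.9% in experiment 3 than in experiment 1. DPE1, the plastid disproportionating enzyme of maltotriose metabolism, read 174, 1099 and 1749.7 in soc1-101D of experiments 1, 2 and 3, 1559.7 in soc1-2, and 131, 1564 and 1801 in Col. It was 10.6-fold and PWD, a starch-phosphorylating kinase, 5.19-fold higher in experiment 3 than in experiment 1 (adjusted p = 9.9e-05 and 0.000143), and both were also higher in experiment 2 than in experiment 1 (log2 2.97 and 1.54, adjusted p = 0.000225 and 0.000930). Genotype differences were −0.06 and −0.16 in soc1-101D, and −0.21 and −0.23 in soc1-2. Of the sugar-induced list, 2 of 7 genes were tested. APL3, a subunit of the starch-building ADP-glucose pyrophosphorylase, was lower in experiment 2 than in experiment 1 (log2 −0.72, adjusted p = 0.0287), and so was the growth gene EXO (log2 −0.78, adjusted p = 0.0142). That direction was called in 16.0% of all tested probe sets. In experiment 3 against experiment 1, APL3 did not pass (log2 −0.32, adjusted p = 0.228) and EXO was lower (log2 −0.83, adjusted p = 0.00909). APL3 was at 0.04 in soc1-101D and 0.03 in soc1-2. EXO was at 0.51 in soc1-101D (adjusted p = 0.228) and 1.49 in soc1-2, with a signal of 1690.2 in soc1-2 against 1120.1, 664 and 591 in Col of experiments 1, 2 and 3.

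**Figure D4:**
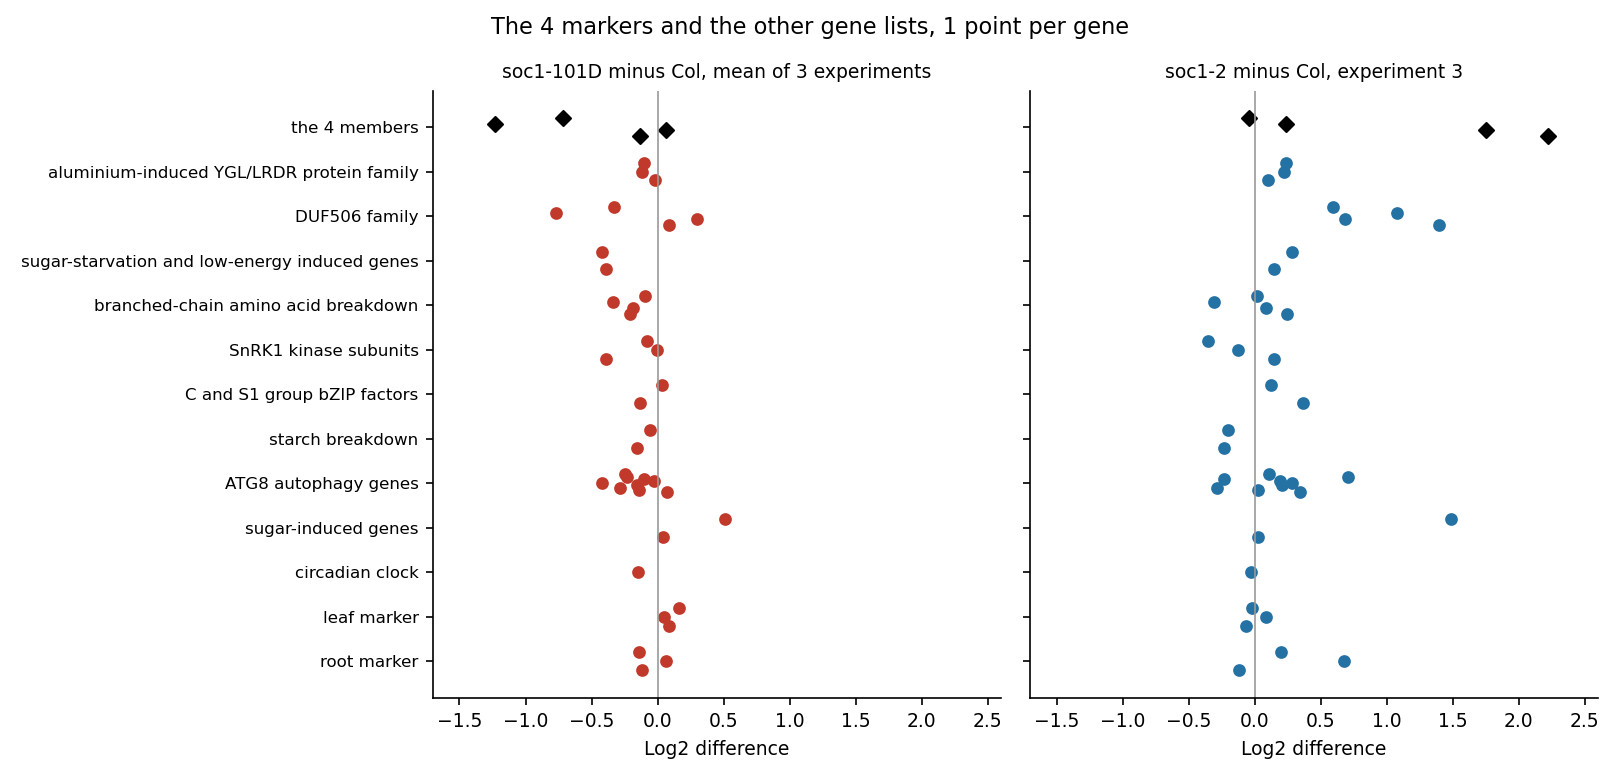
Log2 differences of the 4 markers (black diamonds) and of each tested list member (circles), for soc1-101D minus Col fitted over 3 experiments (left) and soc1-2 minus Col in experiment 3 (right). No list member passed the limma test in either comparison. AT2G20670, AT3G15450 and AT4G27450 were chosen from these differences, so their place among the list members shows nothing by itself.

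Finally, named genes were ranked by how closely their log2 signal followed the mean standardised profile of the 4 markers over the 7 arrays. These r values are a description: the arrays fall into 3 experiments, and the profile comes from the same arrays. AT1G79660 was most alike (r = 0.967), then AT2G32150 (0.962), AT1G16840 (0.956), AT5G15190 (0.948), AT5G59080 (0.948) and AT2G29300 (0.947). Of 7249 named tested probe sets, 0.524% had r above 0.9, and the median was −0.17. The markers themselves had r of 0.927 for AT2G20670, 0.832 for ASN1, 0.831 for AT3G15450 and 0.618 for AT4G27450. Each marker is part of that mean, which raises its r, so these values do not compare with those of the other genes.

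AT2G32150 read 664, 1061 and 487 in soc1-101D of experiments 1, 2 and 3, 652 in soc1-2, and 977, 1603 and 333 in Col. It had the high Col of experiment 2, the low Col of experiment 3 and the sign change of AT2G20670, a likeness that its choice by profile favours. AT2G29300, chosen in the same way, read 87.1, 222 and 88.8 in soc1-101D, 135 in soc1-2, and 236, 483 and 61.1 in Col, in the same arrangement. AT1G79660 was much flatter, between 549.8 and 844. For single markers the closest named genes were AT4G18425 for AT2G20670 (r = 0.957), AT5G60680 for AT3G15450 (0.952), AT2G28810 for AT4G27450 (0.992) and AT1G14240 for ASN1 (0.994). The shares of named tested probe sets with r above 0.9 were 0.138%, 0.262%, 0.317% and 1.37% for these markers in turn. The closest of so many genes over 7 arrays has a high r in any case, so nothing is read from these pairs.

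**Figure D5:**
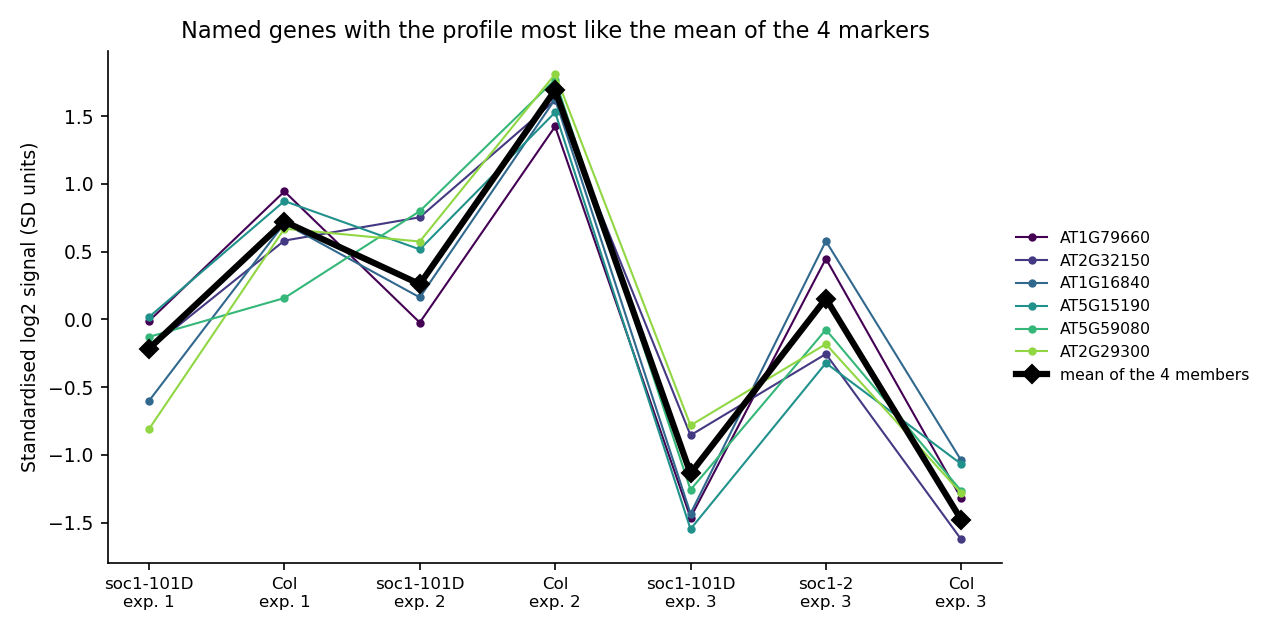
Standardised log2 signal (SD units) on the 7 arrays for the mean of the 4 markers (black) and the 6 named genes most like it, ordered by experiment. All peak in Col of experiment 2 and are lowest on the soc1-101D or the Col array of experiment 3.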

How the data were processed

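The deposited table holds 1 linear intensity per probe set and array from one-colour, biotin-labelled hybridisations. No label names the software behind them. The 2% trimmed means of the deposited intensities ranged from 495.5 to 496.2, as after scaling of whole arrays, and the medians from 178.75 to 206.8. Arrays were brought to a common median of 192.7, a pseudocount of 19.3 was added and log2 was taken. The dimmest 40% by mean log2 signal were left out. Genotype and experiment were fitted as fixed terms with limma 3.58.1 in R 4.3.3, with Benjamini-Hochberg adjustment over 13647 probe sets (2 residual degrees of freedom, prior 5.62). The number of arrays limits the precision.

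The experiment was kept as a block because the labels pair each mutant array with Col of its own experiment. Deviations from group means correlated between its Col and soc1-101D arrays at 0.85, 0.74 and 0.82.

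Names came from the platform annotation (13513 probe sets with 1 gene, 503 with several, 8730 with none), with loci for 13436 through RefSeq's TAIR10.1 gene table. No build is named for the array, so no positions are given. Members and lists were chosen with earlier results of these data known. Named genes were the 4 members, every tested member of lists of up to 5, for ATG8 those first by p or size, and the named genes most alike in profile. No promoter motifs were searched, since no sequences were used here.

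The fits were tested before use on simulated data in which 200 of 13647 probe sets changed. For the experiment terms, 14.8% of 2-fold and 95% of 4-fold changes were recovered, with 5.18% of calls false. In the real data 51.6% of tested probe sets were called on these terms, far more than were changed here. The shares for the experiment terms need not hold there. For soc1-101D, 64% and 99.4% were recovered, with 4% of calls false. A 2-fold change can therefore fail to pass. The soc1-2 comparison was not simulated.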

Additional observations from a re-analysis of the deposited data

How the results depend on the processing

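The number of called probe sets depended on the processing. For soc1-101D against Col limma called 74 probe sets, and 0 without the replicate block (221 at an unadjusted p under 0.05), 0 without the filter on dim signal (1714 unadjusted), 19 with quantile normalization, 43 with a pseudocount of 1 and 173 with one of 0.5 times the common median. Leaving out 1 experiment gave 16 to 153. For soc1-2 limma called 0 (387 unadjusted), 14 with the pseudocount of 0.5 times the common median, and 0 to 30 without 1 experiment, and the plain difference put 111 probe sets past 2-fold. For the experiment terms the count was 7045, against 2317 with no filter and 3462 to 6204 without 1 experiment. The mean soc1-101D difference of AT4G27450 stayed between −1.32 and −1.09 over the alternatives, as its choice favours. That of AT2G20670 was −0.13, and −0.72 to 0.39 without 1 experiment, and that of AT3G15450 was 0.06, and −0.37 to 0.30. Without the replicate block the fitted soc1-2 difference was −0.35 for AT4G27450 and −3.34 for ASN1, against 0.15 and −0.59 with it. The rise of AT3G15450 in experiment 2 against experiment 1 missed the threshold with no filter (adjusted p = 0.111). The causes were not tested, beyond fewer arrays or more probe sets entering those fits. Without experiment 2 ASN1 fell below the filter and has no value. Dim signal limits ASN1 in experiment 3.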
